A study of Mus musculus with 8 samples.

Results

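The 10 genes described here are named markers of endoplasmic reticulum (ER) stress, and they are Hspa5, Hsp90b1, Sdf2l1, Dnajb9, Herpud1, Xbp1, Atf4, Atf3, Ddit3 and Trib3. They were chosen by gene name, with earlier results of these data known. Directions they share with those results are therefore no independent support. The arrays held 12 probes for them among 39429 probes, and all 10 were among the 19655 genes tested. Each of the 10 was well above background on 8 of 8 arrays, so no member was lost to the filter on dim probes.

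The RNA came from cultures of satellite cells, which are muscle stem cells, from the extensor digitorum longus (EDL), a hindlimb muscle, of Dnmt3a-KO mice and of their wild-type (WT) littermates. All mice were labelled male and 8 weeks old. Dnmt3a is an enzyme that sets new DNA methylation. The cells of both genotypes grew for 5 days in growth medium, were replated at matched cell number and were then kept in differentiation medium, in which they become myotubes. RNA was taken after 2, 4, 5 and 6 days, with 1 Agilent 1-colour array per genotype on each day. There were therefore 4 Dnmt3a-KO arrays and 4 WT arrays, and no genotype and day was repeated. The labels give neither the allele nor any Cre driver behind the knockout, and whether each day had its own animals or culture is not stated. The p-values below measure the spread between these arrays, which may be partly technical.

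The ER folds secreted and membrane proteins, and unfolded proteins in its lumen set off the unfolded protein response. The membrane sensors IRE1, PERK and ATF6 start this response. IRE1 splices the Xbp1 messenger RNA, ATF6 is cut to release a transcription factor, and PERK phosphorylates the translation factor eIF2alpha, which lowers protein synthesis while Atf4 messenger RNA is translated more. The arms of IRE1 and ATF6 raise chaperones and degradation factors, and the PERK arm raises Atf3, Ddit3 and Trib3. Parts of this response are known to be active while myoblasts differentiate.

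RefSeq promoter windows of GRCm38.p6 were matched by symbol for 10 of 10 genes. They were searched on both strands for the ER stress response element, the site at which ATF6 and XBP1 act (CCAAT, any 9 bases, CCACG), and for its variant ERSE-II (ATTGG, any 1 base, CCACG), which was added after the other matches had been seen. The windows span 250 bases before to 50 bases after the start of transcription. The element was present in the windows of Hspa5 and Hsp90b1 and in 39 of 32851 windows of all genes (0.119%). ERSE-II was present in the window of Herpud1 and in 12 of the 32851 windows (0.0365%). These 3 sequences are shown because they carry the element in full and because their genes had 3 different courses over the days. Any link between the element and these courses was not tested. Only the 250 bases before the start are printed, 5′ to 3′ on the strand of the gene, with the element in capitals. The leftmost base of the match lay at position -65 from the start in Hspa5 (chr2:34771840-34772089, plus strand), at -212 and, on the opposite strand, at -107 in Hsp90b1 (chr10:86705445-86705694, minus strand), and at -52 in Herpud1 (chr8:94386179-94386428, plus strand).
Hspa5: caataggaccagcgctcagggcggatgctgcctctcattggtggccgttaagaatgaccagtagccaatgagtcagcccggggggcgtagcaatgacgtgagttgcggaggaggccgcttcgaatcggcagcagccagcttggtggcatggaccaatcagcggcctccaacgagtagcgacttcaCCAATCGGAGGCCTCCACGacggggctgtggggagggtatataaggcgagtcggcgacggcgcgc
Hsp90b1: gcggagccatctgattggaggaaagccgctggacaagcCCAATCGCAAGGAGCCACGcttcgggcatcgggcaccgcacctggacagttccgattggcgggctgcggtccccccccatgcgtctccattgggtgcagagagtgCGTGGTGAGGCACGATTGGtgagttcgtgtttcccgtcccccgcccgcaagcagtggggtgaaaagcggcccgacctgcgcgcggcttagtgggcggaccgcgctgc
Herpud1: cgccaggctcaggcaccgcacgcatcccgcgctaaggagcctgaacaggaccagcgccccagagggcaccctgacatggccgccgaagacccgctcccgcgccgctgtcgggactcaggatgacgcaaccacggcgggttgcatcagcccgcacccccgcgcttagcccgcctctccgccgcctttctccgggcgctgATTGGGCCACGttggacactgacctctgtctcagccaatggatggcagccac
The letters CCACG alone, which also end both elements, were present for 6 of 10 genes (Hspa5, Hsp90b1, Sdf2l1, Dnajb9, Herpud1 and Atf4). Of the 27025 genes with windows 35.5% held them. The letters of the cyclic AMP response element (TGACGTCA, 1.79% of windows), of the unfolded protein response element (TGACGTGG, 0.676%) and of the C/EBP-ATF composite sites TGATGCAAT, TGATGAAAC and TGATGTAAT (0.192%, 0.247% and 0.344%) were in none of the 10 windows. A match is a description of the sequence and not evidence of binding, and no match says only that these letters are not in this window.

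The probe used for each gene is placed on mm9 in the file headers' build, at chr2:34631913-34631972 for Hspa5, chr10:86153770-86153829 for Hsp90b1, chr16:17130426-17130485 for Sdf2l1, chr12:45307313-45307372 for Dnajb9, chr8:96919117-96919176 for Herpud1. The others lie at chr11:5425816-5425875 for Xbp1, chr15:80086639-80086698 for Atf4, chr1:192994547-192994606 for Atf3 and chr2:152163161-152163220 for Trib3. The interval of the Ddit3 probe, chr10:126732518-126732821, spans 304 bases, against 60 for the others. These places were not set against exons, since the gene annotation used here is of another build.

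Signals are given as scaled signal, where 1 is the 75th percentile of the array. A level is comparable between arrays for 1 gene and not between genes, since each gene has its own probe. The 75th percentile of the unscaled arrays ran from 720 to 1528, and 61.6% to 67.4% of spots were well above background. Dnmt3a itself was at 46.2%, 19.8%, 21.7% and 19.1% of the WT level on days 2, 4, 5 and 6. Both arrays of day 2 shared a slide that held no other day, and they were read on another scanner model and with another software version than the 6 later arrays. On day 2 both arrays gave signal well above background for Uty, Kdm5d, Ddx3y and Eif2s3y, all of the Y chromosome, and none for Xist. The 6 later arrays gave it for Xist and for none of the 4. The later arrays therefore go against the label male, and day 2 cannot be told apart from slide, scanner and source animals in any comparison of day 2 with later days. Of 10 myogenic markers 9 were well above background on all arrays, and Myf5 was so on none. In RNA of a whole culture, fewer cells of a type and less RNA per cell cannot be told apart.

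**Figure D1:**
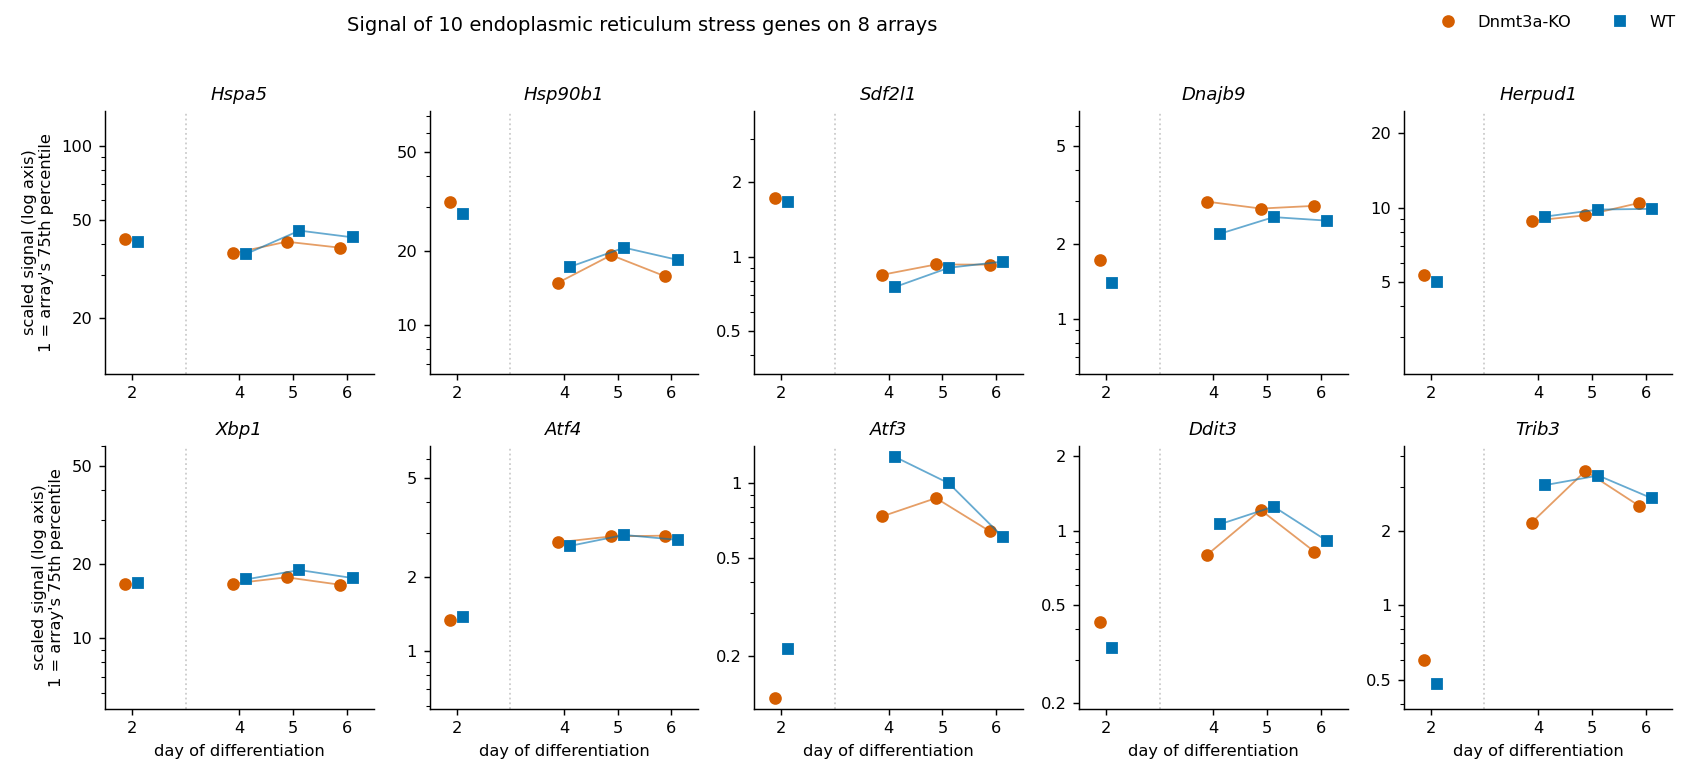
Scaled signal (log axis, 1 is the 75th percentile of the array) of the 10 genes by day of differentiation, with 1 point per array, Dnmt3a-KO in orange circles and WT in blue squares. The vertical scale spans the same fold range in each panel, and the dotted line parts day 2, which was read apart, from days 4 to 6. The step after day 2 is large for Trib3, Atf3 and Ddit3 and is not seen for Hspa5 and Xbp1, while the genotypes lie close together for most genes.

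The first question was whether Dnmt3a-KO cells carried more or less of these stress transcripts than WT cells at the same day. None of the 10 genes passed the test between the genotypes. On average over the 4 days they differed by -0.39 to 0.26 on the log2 scale, with a median of -0.06 against -0.01 for all genes tested. The genotype effect called 0 of 10 members at an adjusted p under 0.05 (limma, day as a block), and 2 of the 19655 genes, or 0.0102%, so this test passed almost no gene. At an unadjusted p under 0.05 it passed 1 member, Dnajb9, against 12.9% of all genes. A 2-fold difference was reached by 0 members on any day, against 9.48% of genes on at least 1 day.

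Hspa5 encodes BiP, the main ER chaperone of the Hsp70 family and the usual readout of the response. Its scaled signal was 42.0, 36.6, 40.8 and 38.6 in Dnmt3a-KO cells on days 2, 4, 5 and 6, against 40.9, 36.4, 45.3 and 42.5 in WT cells. All 8 arrays lay within a narrow band and the genotypes overlapped. The genotype effect was -0.06 (95% CI -0.24 to 0.12, SD over days 0.098, adjusted p = 0.74).

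Hsp90b1 encodes GRP94, the ER member of the Hsp90 family. It had 31.6, 14.8, 19.2 and 15.8 on days 2, 4, 5 and 6 in Dnmt3a-KO cells, and 28.1, 17.3, 20.6 and 18.4 in WT cells. It was higher in Dnmt3a-KO cells on day 2 and lower on the 3 later days, with a genotype effect of -0.09 (95% CI -0.33 to 0.14, adjusted p = 0.70). Sdf2l1, a partner of the BiP chaperone complex, had 1.73, 0.845, 0.931 and 0.929 in Dnmt3a-KO cells, against 1.66, 0.755, 0.902 and 0.955 in WT cells. Its genotype effect was 0.06 (95% CI -0.12 to 0.23, adjusted p = 0.75), and the order of the genotypes turned on day 6.

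Dnajb9 encodes ERdj4, a J-domain co-chaperone of BiP that also acts on IRE1. It had 1.72, 2.97, 2.79 and 2.86 in Dnmt3a-KO cells on days 2, 4, 5 and 6, against 1.39, 2.21, 2.58 and 2.49 in WT cells. It was the only member higher in Dnmt3a-KO cells on all 4 days, a pattern that 10.9% of all genes had. The difference was 0.30, 0.43, 0.11 and 0.20 on the log2 scale on the 4 days, and its mean of 0.26 (SE 0.08, 95% CI 0.059 to 0.47) corresponds to 1.20-fold. Its adjusted p was 0.32 over all genes (unadjusted 0.021), so it did not pass the test. A second, dimmer Dnajb9 probe gave a mean difference of 0.14 (SD 0.20 over days), with the Dnmt3a-KO array lower on day 5. Because the WT level on days 4 to 6 lay above the Dnmt3a-KO level on day 2, the 2 sets of arrays overlapped, as they did for each of the 10 genes. Among all genes 1.71% had genotypes that did not overlap.

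Herpud1 encodes a membrane protein of the ER-associated degradation machinery. Its signal was 5.36, 8.87, 9.33 and 10.5 on days 2, 4, 5 and 6 in Dnmt3a-KO cells, and 5.03, 9.22, 9.85 and 9.91 in WT cells. The genotypes exchanged order between days, and the effect was 0.01 (95% CI -0.17 to 0.19, adjusted p = 0.97).

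Xbp1, whose messenger RNA IRE1 splices into the form that encodes an active transcription factor, was the steadiest of the 10. It had 16.7, 16.7, 17.7 and 16.5 in Dnmt3a-KO cells and 16.8, 17.3, 18.9 and 17.5 in WT cells on days 2, 4, 5 and 6. It was lower in Dnmt3a-KO cells on all 4 days, as 11.5% of all genes were, but by only -0.06 (SD 0.039 over days, 95% CI -0.22 to 0.10, adjusted p = 0.69). The probe was not placed relative to the spliced intron, so the signal is a level of Xbp1 transcript and not of splicing.

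Atf4 encodes the transcription factor of the PERK arm, which is controlled mainly in translation. It had 1.34, 2.75, 2.91 and 2.93 in Dnmt3a-KO cells on days 2, 4, 5 and 6, against 1.38, 2.66, 2.95 and 2.81 in WT cells. The arrays of a day nearly coincided, with an effect of 0.01 (95% CI -0.15 to 0.17, adjusted p = 0.96). A brighter second Atf4 probe carried spots marked as outliers on 2 arrays and was not used. With those spots kept its effect was -0.08 (adjusted p = 0.73).

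Atf3, Ddit3 and Trib3 are induced downstream of ATF4, and they were the members that varied most between days. Atf3, a transcription factor of many stress responses, had 0.136, 0.735, 0.871 and 0.640 in Dnmt3a-KO cells on days 2, 4, 5 and 6, against 0.213, 1.28, 0.9996 and 0.607 in WT cells. The Dnmt3a-KO array was the lower of the pair on days 2, 4 and 5, by 1.74-fold on day 4, which was the largest difference of any member on any day. The mean difference was -0.39 (SD 0.40 over days, 95% CI -0.81 to 0.03), and its adjusted p of 0.41 did not pass.

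Ddit3 encodes CHOP, a factor linked to cell death under lasting stress. It had 0.426, 0.797, 1.21 and 0.822 on days 2, 4, 5 and 6 in Dnmt3a-KO cells, and 0.334, 1.06, 1.25 and 0.906 in WT cells. Trib3, a pseudokinase that CHOP and ATF4 induce, had 0.601, 2.16, 3.49 and 2.52 in Dnmt3a-KO cells, against 0.481, 3.06, 3.34 and 2.70 in WT cells. Both were higher in Dnmt3a-KO cells on day 2 and lower on day 4. The log2 differences of Ddit3 were 0.35 on day 2 and -0.41 on day 4, and those of Trib3 were 0.32 and -0.50. Over the 4 days these cancelled to -0.06 for Ddit3 (95% CI -0.40 to 0.28, adjusted p = 0.86) and -0.05 for Trib3 (95% CI -0.42 to 0.31, adjusted p = 0.89).

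Some fibroblast markers were also at unequal levels in the 2 genotypes on these days. The summed scaled signal of the 8 tested fibroblast and fibro-adipogenic markers was 81.4, 22.8, 109 and 35.1 in Dnmt3a-KO cells on days 2, 4, 5 and 6, against 31.5, 65.0, 100.007 and 65.4 in WT cells. The sum adds the signals of different probes, and Col1a2 gave the largest part, at 74.9, 14.4, 66.7 and 21.6 in Dnmt3a-KO cells and 24.5, 43.9, 64.5 and 40.5 in WT cells. The other markers did not all follow it. Col3a1, Pi16 and Ly6a were lower in Dnmt3a-KO cells on day 2, and Pdgfra, Dcn and Cd34 were higher on day 4. Of the 10 listed markers 6 were well above background on all arrays, and Lum and Dpt were so on none. Myogenic markers differed between the genotypes on these days too. Ckm had 6.78, 12.2, 17.2 and 16.2 in Dnmt3a-KO cells on days 2, 4, 5 and 6, against 5.03, 17.7, 15.3 and 17.8 in WT cells. Des and Tnnt3 were likewise higher in Dnmt3a-KO cells on day 2 and lower on day 4. Myod1, Myog and Mymk were higher on both days, and Pax7 was lower on both. The part of the fibroblast and myogenic markers in the daily differences of Ddit3 and Trib3 was not tested.

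**Figure D2:**
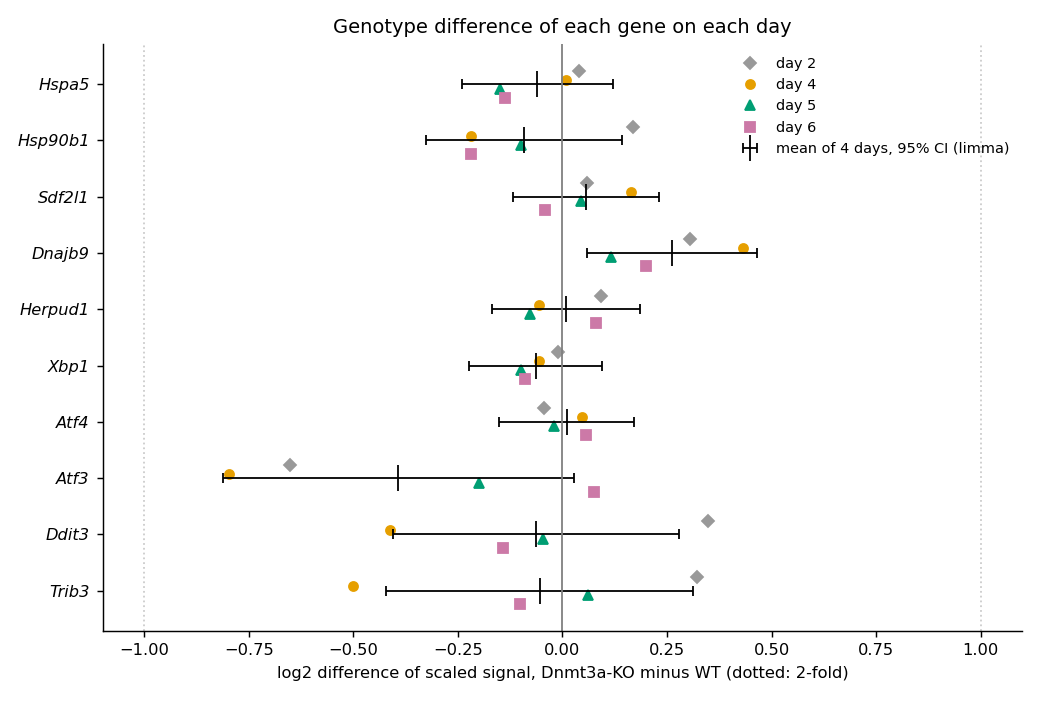
Log2 difference of scaled signal, Dnmt3a-KO minus WT, of the 10 genes on each of the 4 days (coloured points), with the mean over days and its 95% confidence interval from limma (black). Dotted lines mark 2-fold. Only the interval of Dnajb9 lies to 1 side of 0 (0.059 to 0.47, before adjustment over genes), and Atf3, Ddit3 and Trib3 spread most over the days.

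Whether the genotype difference itself changed along the days was tested with the interaction of genotype and day. It called 0 of 10 members and 0 of 19655 genes (limma), a background of 0%. At an unadjusted p under 0.05 it passed 0 members and 820 genes (4.17%). The estimate furthest from 0 was that of Atf3, whose day slope was higher by 0.19 log2 units per day in Dnmt3a-KO cells than in WT cells (95% CI -0.04 to 0.42). The opposite differences of Ddit3 and Trib3 on days 2 and 4 each rest on 1 array per genotype.

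The second comparison followed the genes along differentiation, with both genotypes in 1 fit. Over days 2 to 6 the slope of log2 signal per day was higher than 0 for 5 members and lower for 2 at an adjusted p under 0.05 (limma, genotype as a covariate). The members that rose were Trib3, Ddit3, Atf4, Herpud1 and Dnajb9, and those that fell were Hsp90b1 and Sdf2l1. In this comparison 25.9% of all genes rose and 19.5% fell. The share of members that rose exceeded that background and the share that fell was near it. The median slope of the 10 genes was 0.23 per day, against 0.03 for all genes.

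Trib3 had the steepest slope, 0.62 log2 units per day (95% CI 0.30 to 0.95, adjusted p = 0.0158). Its geometric mean on days 4 to 6 was 4.44-fold its day 2 level in Dnmt3a-KO cells and 6.29-fold in WT cells. Atf3 had a similar step, 5.47-fold in Dnmt3a-KO cells and 4.31-fold in WT cells, but its slope of 0.51 had an adjusted p of 0.0506. Its 3 later days differed among themselves, with the WT array at 1.28 on day 4 and 0.607 on day 6. Ddit3 was 2.17-fold higher on days 4 to 6 than on day 2 in Dnmt3a-KO cells and 3.18-fold higher in WT cells (slope 0.35, 95% CI 0.11 to 0.59, adjusted p = 0.0315).

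Atf4 was 2.14-fold higher on days 4 to 6 than on day 2 in Dnmt3a-KO cells and 2.04-fold higher in WT cells (slope 0.28, 95% CI 0.15 to 0.42, adjusted p = 0.0138). Its second probe gave a step of 0.824 log2 units in Dnmt3a-KO cells and 1.003 in WT cells. Herpud1 was 1.78-fold higher in Dnmt3a-KO cells and 1.92-fold higher in WT cells (slope 0.25, adjusted p = 0.0118), and Dnajb9 was 1.67-fold higher in Dnmt3a-KO cells and 1.74-fold higher in WT cells (slope 0.20, adjusted p = 0.0169). The second, dimmer Dnajb9 probe gave a smaller step, of 0.442 log2 units in Dnmt3a-KO cells and 0.470 in WT cells. For the Dnajb9 probe used the step was 0.740 and 0.795. Atf4, Herpud1 and Dnajb9 belong to different arms, with Herpud1 and Dnajb9 counted among targets of ATF6 and XBP1.

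The ER chaperones Hsp90b1 and Sdf2l1 went the other way. Hsp90b1 on day 2 was 1.91-fold its mean on days 4 to 6 in Dnmt3a-KO cells and 1.504-fold in WT cells (slope -0.19, 95% CI -0.34 to -0.04, adjusted p = 0.0491). Sdf2l1 on day 2 was 1.92-fold its later mean in both genotypes (slope -0.21, 95% CI -0.39 to -0.04, adjusted p = 0.0491). Both lay at the threshold, and with the deposited score in place of the scanner signal neither passed (adjusted p = 0.0519 for Hsp90b1 and 0.0504 for Sdf2l1). Hspa5 and Xbp1 showed no trend that passed, with slopes of 0.0034 (95% CI -0.08 to 0.09) and 0.01 (95% CI -0.05 to 0.08). The genes that carry the full response element in the printed windows were level (Hspa5), lower (Hsp90b1) and, with ERSE-II, higher (Herpud1) on the later days. Their windows were printed in part for these courses, and the part of the element in them was not tested.

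The trend is a step between day 2 and the later arrays. All 6 later arrays lay above both day 2 arrays for 6 members (Ddit3, Atf3, Atf4, Dnajb9, Herpud1 and Trib3), against 38.1% of all genes. All 6 lay below both for Hsp90b1 and Sdf2l1, against 29.7% of all genes. Without day 2 the slope passed for 0 members and 0 of the 19655 genes, a background of 0%, and at an unadjusted p under 0.05 for 0 members and 8% of genes. The slopes over days 4 to 6 were -0.32 to 0.12 per day, and those of Hsp90b1, Sdf2l1, Ddit3 and Atf3 changed sign. With slide as a random block 3 members were called (Atf4, Herpud1 and Trib3), against 9.84% of all genes. Without day 5 none was, against 1.99% of all genes.

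**Figure D3:**
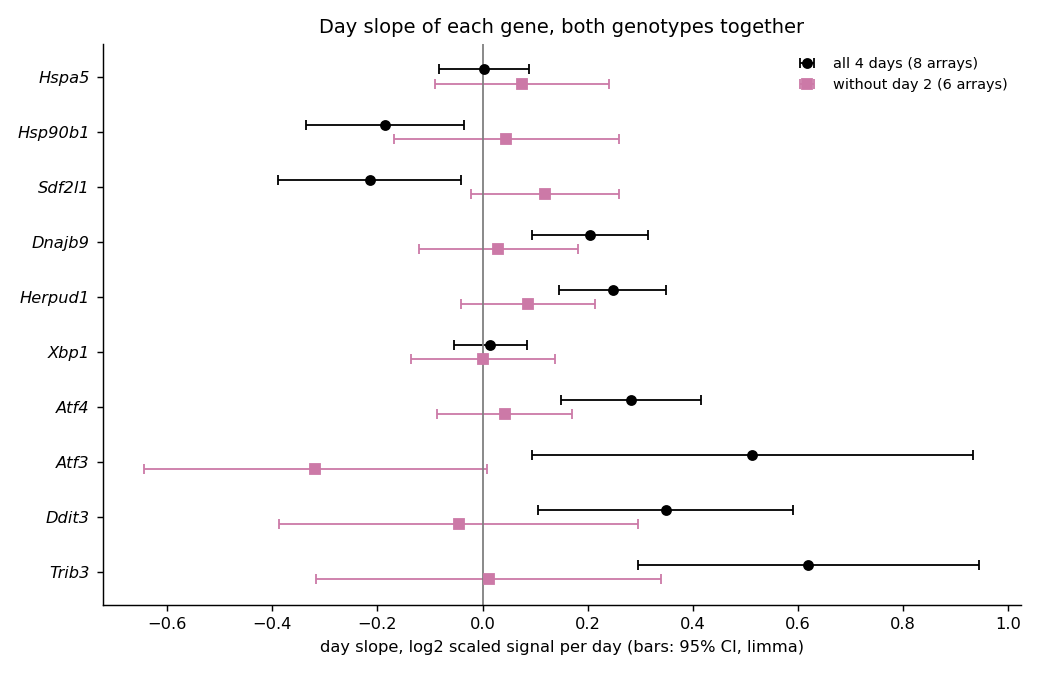
Slope of log2 scaled signal per day for the 10 genes, both genotypes together, with 95% confidence intervals from limma, over all 4 days (black) and without day 2 (pink). Intervals over all days lie to 1 side of 0 for 8 genes, and without day 2 every interval includes 0.

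Some markers of muscle and of other cell types were also at other levels on day 2 than later. The summed signal of the 6 tested macrophage and leukocyte markers was 21.2 on day 2 in Dnmt3a-KO cells and 20.8 in WT cells, and the later arrays gave 8.86 to 11.3 in Dnmt3a-KO cells and 10.3 to 13.01 in WT cells. Itgam carried this sum, at 20.8 on day 2 in Dnmt3a-KO cells and 20.3 in WT cells. Along the days Itgam and Fcer1g fell (slopes -0.31 and -0.25), while Ptprc, Adgre1 and Csf1r rose (0.36, 0.48 and 0.52). Of the 8 listed, 5 were well above background on all arrays, and Cd68 and Lyz2 were so on none. The 7 tested myogenic markers summed to 323 in Dnmt3a-KO cells and 294 in WT cells on day 2, and to 409.8 or more on each later array. Tnnt3 gave the largest part of the later sums and rose, as did Des and Ckm, while Pax7 and Myod1 fell (slopes -0.69 and -0.33). Myog (-0.08) and Mymk (-0.08) did not pass. Of these markers 42.9% rose and 28.6% fell, against 25.9% and 19.5% of all genes. The 4 tested endothelial markers summed to 2.93 to 3.93 in Dnmt3a-KO cells and 2.50 to 3.85 in WT cells, with Tek well above background on none. Kdr gave most of this sum, at 2.37 on day 2 in Dnmt3a-KO cells and 2.22 in WT cells. It rose along the days (slope 0.17), while Cldn5 fell (-0.77). Emcn (0.47) and Pecam1 (-0.13) did not pass. Of the 8 tested fibroblast and fibro-adipogenic markers 4 rose, namely Col1a1 (slope 1.40), Cd34 (1.03), Ly6a (0.64) and Dcn (0.62), and 0 fell. That is 50% and 0% of those tested, against 25.9% and 19.5% of all genes. Pdgfra (0.69), Col1a2 (-0.03), Col3a1 (-0.10) and Pi16 (-0.16) did not pass. The part of these cell types in the step was not tested.

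Within the later days, which share scanner and software, most members were highest on the same day. Day 5 was the highest of days 4 to 6 for 7 of 10 members in Dnmt3a-KO cells, against 30.2% of all genes. It was also the highest for 7 of 10 in WT cells, against 34.6%. Hspa5, Hsp90b1, Ddit3, Xbp1 and Trib3 did so in both genotypes. Hspa5 had 36.6 on day 4 and 40.8 on day 5 in Dnmt3a-KO cells, against 36.4 and 45.3 in WT cells. In Dnmt3a-KO cells Trib3 had 2.16 on day 4 and 3.49 on day 5, and in WT cells 3.06 and 3.34. Of days 4 to 6, the summed signal of the tested fibroblast and fibro-adipogenic markers was also highest on day 5 in both genotypes. The sum was 22.8, 109 and 35.1 on days 4, 5 and 6 in Dnmt3a-KO cells, and 65.0, 100.007 and 65.4 in WT cells. The same held for macrophage markers and, of the lists below, for other ER chaperones and ATF4 targets. It did not hold in both genotypes for the remaining lists and markers. The part of these genes in the day 5 level was not tested. Each day rests on 1 array per genotype, and the day 5 level was not tested against the days around it. The arrays of days 4 and 5 shared a slide and those of day 6 were on another, so day 6 and its slide cannot be told apart. With median scaling the counts were 8 in Dnmt3a-KO cells and 5 in WT cells, against 31.9% and 24.8% of all genes.

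Genes of the same pathways outside the 10 were read from lists of known roles, and the genotype effect called none of them in any list (background 0.0102%). Among 16 stress sensors and regulators of eIF2alpha, 7 were higher and 9 lower in Dnmt3a-KO cells. The median was -0.01. The highest was Ppp1r15a, which encodes the stress-induced subunit that dephosphorylates eIF2alpha, at 0.15 (adjusted p = 0.43). It was higher on 4 of 4 days, as were 10.9% of all genes. The lowest was Creb3l2 at -0.23 (adjusted p = 0.63). Along the days 2 rose, Ppp1r15a (slope 0.25) and Creb3 (0.17), and 4 fell, namely Atf6 (-0.29), Ern1, which encodes IRE1 (-0.23), Atf6b (-0.18) and Eif2ak4 (-0.16). That is 12.5% and 25% of the list, against 25.9% and 19.5% of all genes.

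Of the 20 other ER chaperones and folding enzymes 16 were lower and 4 higher in Dnmt3a-KO cells, and 0 passed the test. The median was -0.07, against -0.01 for all genes. These genes were read on the same arrays, so they are not separate results, and the list as a whole was not tested. The median of the list was -0.01, -0.18, 0.02 and -0.25 on days 2, 4, 5 and 6. That of the tested fibroblast markers was 0.50, -0.99, 0.26 and -0.74 on the same days, and its part in the list's differences was not tested. The lowest was Dnajc3, a co-chaperone that restrains PERK, at -0.21 (adjusted p = 0.35). It was lower on 4 of 4 days, as were 11.5% of all genes. The highest was the oxidase Ero1b at 0.19 (adjusted p = 0.43) and higher on 4 of 4 days. Along the days none rose and 5 fell: Hyou1 (-0.33), Ppib (-0.29), Ero1b (-0.23), Manf (-0.20) and Pdia6 (-0.11). The largest slope upward, that of Sil1 (0.09), did not pass. The share of the list that fell was 25%, against 19.5% of all genes.

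Of the 17 genes of ER-associated degradation 16 were tested, with 10 higher and 6 lower in Dnmt3a-KO cells and a median of 0.02. Edem3 was highest (0.22, adjusted p = 0.49) and Edem1 lowest (-0.15, adjusted p = 0.61). Along the days 4 rose, among them the ubiquitin-conjugating enzyme Ube2g2 (slope 0.26), Derl1 (0.20) and Vcp (0.10). Erlec1 (-0.31), Syvn1 (-0.13) and Edem3 (-0.13) fell, and Derl3 had the lowest slope at -0.45 without passing (adjusted p = 0.0643). Of the list 25% rose and 18.8% fell, against 25.9% and 19.5% of all genes.

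Of the 26 ATF4 targets and amino acid response genes 12 rose along the days and 1 fell, so 46.2% of the list rose against 25.9% of all genes. Their median slope was 0.07 per day, against 0.03 for all genes. Cebpb had the steepest slope (0.81), with days 4 to 6 at 9.14-fold the day 2 level in Dnmt3a-KO cells and 8.55-fold in WT cells. Chac1, a glutathione-degrading enzyme induced by ATF4, rose by 0.45 per day (adjusted p = 0.0097), and Sesn2 was the gene that fell (-0.27). Between the genotypes 22 were lower and 4 higher in Dnmt3a-KO cells with a median of -0.17, against -0.01 for all genes, and 0 passed. They too were read on the same arrays and are not separate results, and the list as a whole was not tested. Cth, an enzyme of cysteine synthesis, was lowest at -0.82 (adjusted p = 0.25) and lower on 4 of 4 days. Its scaled signal was 0.434, 0.164, 0.401 and 0.144 in Dnmt3a-KO cells, against 0.790, 0.330, 0.443 and 0.342 in WT cells on days 2, 4, 5 and 6. Chac1 was highest at 0.09.

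Among 8 genes of stress-linked apoptosis 3 rose along the days, Casp12 (slope 0.38), Bbc3 (0.22) and Bak1 (0.19), and none fell, with Tnfrsf10b lowest at -0.13. Of this list 37.5% rose, against 25.9% of all genes. Casp12 was well above background on 4 of 8 arrays and at the floor of the scale on day 2 in Dnmt3a-KO cells, which bears on both its slope and its genotype effect. Pmaip1, which encodes the BH3-only protein NOXA, was highest in Dnmt3a-KO cells at 0.61 (SD 0.38, adjusted p = 0.29) and higher on 4 of 4 days. Casp12 was lowest at -0.63 (SD 0.76, adjusted p = 0.44). Of 13 genes of the cytosolic heat shock response 10 were tested. Hspa1a (slope 0.31), Cryab (0.24) and Hspa8 (0.18) rose and Dnajb1 (-0.19) fell. That is 30% and 10% of those tested, against 25.9% and 19.5% of all genes. Hspa1a was also lowest between the genotypes at -0.28 (adjusted p = 0.32) and Bag3 highest at 0.20 (adjusted p = 0.38). In Dnmt3a-KO cells Hspa1a was lower and Bag3 higher on 4 of 4 days. Without day 2 none of the genes in these lists was called. Some slopes were then about as large, as for Erlec1 (-0.34 without day 2 and -0.31 with it) and Fgf21 (0.22 and 0.26), while that of Cebpb was 0.02.

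**Figure D4:**
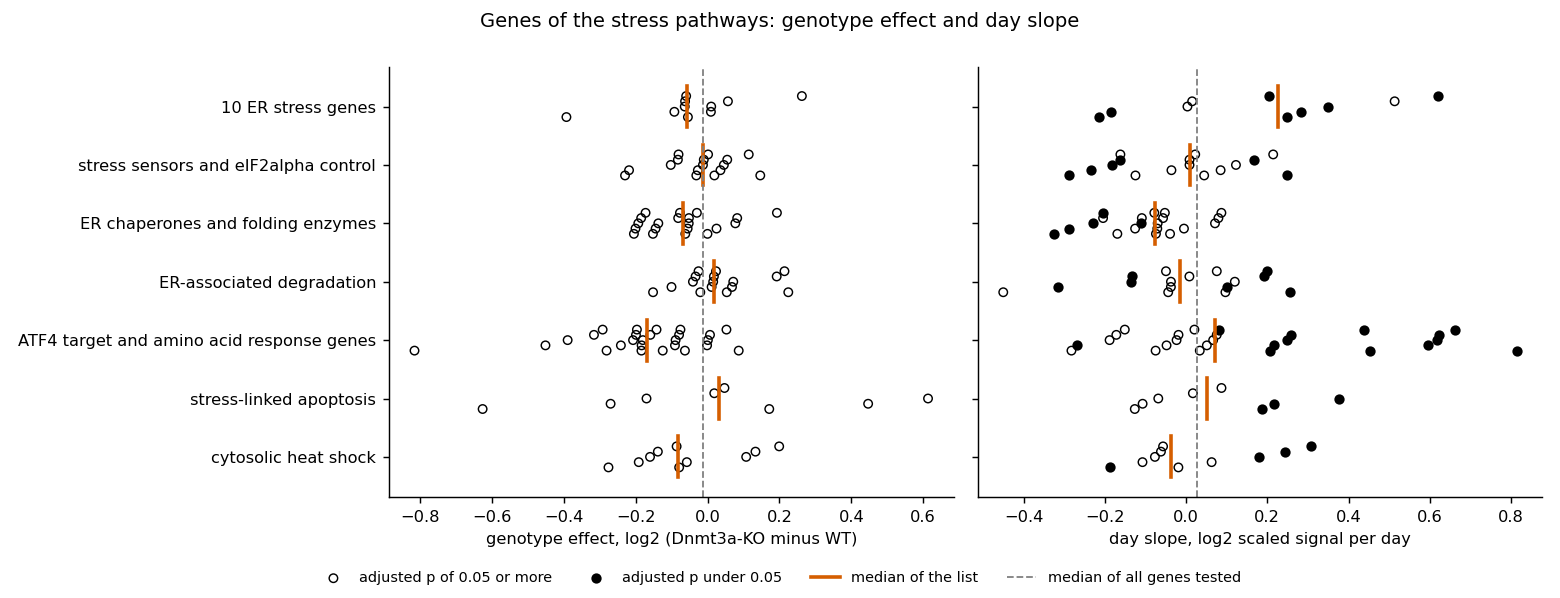
Genotype effect (left, log2, Dnmt3a-KO minus WT) and day slope (right, log2 per day) of each tested gene in the 10 ER stress genes and 6 lists of related genes. Filled points passed at an adjusted p under 0.05, orange bars are list medians and the dashed line is the median of all genes. No point is filled on the left, and on the right the ATF4 targets hold 12 filled points above 0 and 1 below.

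The genes whose signal over the 8 arrays was most like that of Hspa5 were Pcyt1b (Pearson's r = 0.957), Zfp820 (0.895), Mdh1b (0.89), Zfyve21 (0.885) and Sema3a (0.87). None of them belongs to the lists above. Pcyt1b and Zfp820 were dim, at 0.0141 to 0.0313 and 0.0199 to 0.052 in scaled signal, against a floor of 0.00763. The genes most like Trib3 were Fez2, Gnao1, Mlip, Phospho1 and Slc6a9, each at 0.996. Among the members, Ddit3 (0.984), Atf4 (0.977), Herpud1 (0.969), Atf3 (0.941) and Dnajb9 (0.88) followed Trib3, and Hsp90b1 (-0.817) and Sdf2l1 (-0.944) ran opposite to it. Hspa5 (-0.112) and Xbp1 (0.531) did neither. These values describe 8 arrays that share the split of day 2 from the later days. For genes with a step after day 2, such as Trib3, that split alone gives high values. Hspa5 had no such step. Its highest array was only 1.15-fold its lowest in Dnmt3a-KO cells and 1.24-fold in WT cells. Its neighbours are the highest values among all genes with a symbol, matched to these small differences between arrays.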

How the data were processed

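RNA of 8 samples, 1 per genotype and day, was read on 1-colour Agilent arrays. Spot intensity came, per the file headers, from a G2505C scanner and Feature Extraction 11.0.1.1 for day 2, from a G2505B scanner and version 9.5.3.1 for days 4 to 6, with probes placed on mm9. The submitters' processing notes name version 9.5. The deposited value table holds a score, which the scanner files show to be the processed intensity times 100 over the array's 75th percentile over all spots, rounded, with negatives at 0. Its column median was 6 on each array.

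The processed intensity was divided by each array's 75th percentile over non-control spots, set to a floor of 0.00763 and put on the log2 scale. Outlier-flagged spots were left out, and 273 probes had no usable spot on some array. Of 39429 probes 26055 matched RefSeq, which updated 3358 symbols. The brightest usable probe of each gene was kept, and genes were tested if they were well above background on 4 or more arrays, with limma 3.58.1 (R 4.3.3, lmFit and eBayes, Benjamini-Hochberg over 19655 genes). Residual degrees of freedom were 3 for genotype (day as a block), 5 for the day slope and 2 for the interaction. SDs are over the 4 daily differences. The number of arrays limits the precision. The steps were tested on simulated data. Normexp, an alternative, used the deposited median signal intensity with an offset of 50 and the local background capped at 3 times the array's median.

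The members and lists were chosen with earlier results of these data known, and directions they share with those results are no independent support. Named are the 10 members, Dnmt3a, the highest and lowest gene of each list by genotype effect and by day slope, called genes of lists with 5 or fewer calls, and the 5 genes most correlated with Hspa5 and with Trib3. Markers and other genes called along the days were named after their values were seen. The values of 1 gene of a list are not reported here. Alternatives covered scaling, background correction, source of values, filter, probe choice, variance model, array weights, blocks, flagged spots and each day left out. Probes were not placed in exons, since no annotation of mm9 was used here.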

Additional observations from a re-analysis of the deposited data

How the results depend on the processing

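For the genotype effect, 0 members were called under each of the 17 alternatives run, while the number of genes called moved from 2 to 0 with quantile scaling, median scaling, the deposited score, no filter, the mean of all probes or no day block. It was 89 with normexp, 38 with genes well above background on all 8 arrays, 93 with trend and robust eBayes, 14 with array weights, 128 with day as a random block, 19 with slide as a block and 0 to 3 when 1 day was left out. Dnajb9 kept its direction under all of these (0.20 to 0.31, adjusted p 0.19 or more). Effects near 0 changed sign for Atf4 with flagged spots kept (-0.0787) and Herpud1 with normexp (-0.0014), and when 1 day was left out they ran from -0.1998 to 0.0536 for Ddit3, -0.1803 to 0.094 for Trib3, -0.0058 to 0.028 for Atf4 and -0.0182 to 0.038 for Herpud1.

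For the day slope, 8920 genes and 7 members were called. The genes came to 1935 with slide as a random block and 391 without day 5, and ranged from 0 (without day 2) to 9863 (without day 4) when 1 day was left out. Members called were 3 with slide as a random block, 4 without the filter, which tests more genes, and 0 to 8 when 1 day was left out. The split of all genes was 4183 up and 4020 down with quantile scaling and 7765 up and 3493 down with normexp, against 5097 and 3823. Atf3 passed under 6 of 15 alternatives. Leaving out 1 day, slopes ran from -0.2308 to 0.0451 for Hsp90b1, -0.0454 to 0.5791 for Ddit3, -0.3181 to 0.881 for Atf3, -0.3314 to 0.1189 for Sdf2l1 and -0.0081 to 0.0752 for Hspa5, and the sign changed without day 2 in the first 4. Slopes near 0 also changed sign for Hspa5 with quantile scaling (-0.0529), median scaling (-0.0018), normexp (-0.0659) or array weights (-0.0027), and for Xbp1 with quantile scaling (-0.0198).

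The interaction called 0 genes under the 14 alternatives run (limma), and between 537 and 1565 genes had an unadjusted p under 0.05. Leaving out 1 day, member estimates that changed sign ran from -0.1044 to 0.0002 for Hsp90b1, -0.1668 to 0.135 for Ddit3, -0.0587 to 0.0679 for Herpud1, -0.133 to 0.2001 for Trib3 and -0.1019 to 0.0032 for Sdf2l1. Median scaling gave 0.0063 for Herpud1, and flagged spots kept gave -0.0054 for Atf4. The cause of these changes was not tested. Keeping flagged spots and rescaling the day 5 peak were chosen after seeing the data.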
